A study of Cervus nippon with 40 samples.

Results

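The miR-2284 and miR-2285 family was followed through 10 organs of Sika Deer at 4 stages of life. All names that begin with miR-2284 or miR-2285 were taken, whatever their level. There were 68 such names, 17 of miR-2284 and 51 of miR-2285, of 500 names listed in at least 1 of 40 libraries, 337 known and 163 numbered. The names miR-2284y and miR-2285u had equal reads in 36 of 40 libraries and never differed by more than 7 reads, so they were counted once, as miR-2284y. That left 67 members.

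The deer were males of the Shuangyang breed. Liver, kidney, spleen, lung, heart, muscle, brain, adrenal, testes and antler were sampled. The deer were 1 year old at the juvenile stage and 3 years old in adolescence, and the adult and aged deer were 5 and 10 years old. RNA of 3 deer was pooled for every library, and 12 deer gave all libraries, so a stage could not be told apart from its deer. There was 1 library for each organ and stage. The spread over 4 libraries of an organ given below is therefore a spread over stages and pools, not over replicates.

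MicroRNAs are short RNAs that guide Argonaute proteins to messenger RNAs, mainly through the bases of their seed, and so lower the output of their targets. Names of a family mark similar sequences, which can come from many gene copies. The miR-2284 and miR-2285 names were given in cattle and stand for a large group of similar miRNAs of ruminants. Because members resemble each other, a read may be assigned to more than 1 name, and the level of a single name depends on how such reads were assigned. The targets of these members were not measured in the tables used here.

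Levels are RPM, the reads of a miRNA scaled to the miRNA reads of its library. Libraries held 41866 to 7759033 miRNA reads, with a median of 744715, so in the shallowest library (aged testes) 3 reads stood for 71.7 RPM. In muscle miR-1 took most of the miRNA reads, and TMM factors, which rescale libraries by the bulk of their miRNAs, were 0.0431 to 0.0769 there against 1.88 to 4.85 in testes. RPM of muscle were low for most miRNAs. Of 21 pairs of an organ and a marker miRNA 16 were analysed, miR-192 standing for both liver and kidney, and in 14 the marker had its highest mean RPM in that organ. Some of these levels were low, such as miR-499 at 0.622 RPM in heart, miR-206 at 1.42 RPM in muscle and miR-194 at 1.34 RPM in kidney. No reads were listed for miR-122 (liver), miR-124b and miR-9-5p (brain), miR-223 (spleen) and miR-34c (testes). For liver the marker analysed was miR-192, at 162672 RPM in liver and 162722 RPM in kidney. In bulk tissue, fewer cells of a type and less RNA per cell cannot be told apart.

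The family held 204784 reads, 0.390% of all miRNA reads, and nearly all of them lay on few names. Muscle libraries held 49.1% of all miRNA reads, and other near-identical names, such as let-7b and miR-3596, counted under both names in that total. miR-2284x alone had 189296 reads, 92.4% of the family, and ranked 22 among 337 known names by total reads. It was followed by miR-2285l with 5364 reads, miR-2284y with 4829, miR-2285o with 2244, miR-2285f with 1060 and miR-2285j with 343. These 6 members were tested and together held 99.2% of the family's reads. The minimum for a test was 10 reads in at least 4 libraries, and 8 members reached it. The other 2, miR-2285ce and miR-2285bn, were listed in antler alone and entered no test. miR-2285j passed that minimum only through its 4 liver libraries, so a difference between liver and other organs was needed for it to be tested at all.

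The other 61 members were not tested. Of these, 34 were listed outside antler and under the minimum, with 966 reads among them, and 27 were listed in antler alone. For comparison, 3 of the 19 cattle-numbered names from miR-2286 to miR-2477 passed the minimum, as did 117 of 264 other known names listed outside antler. Median total reads were 22 over the 40 members listed outside antler and 62.5 over those 264 names.

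**Figure D1:**
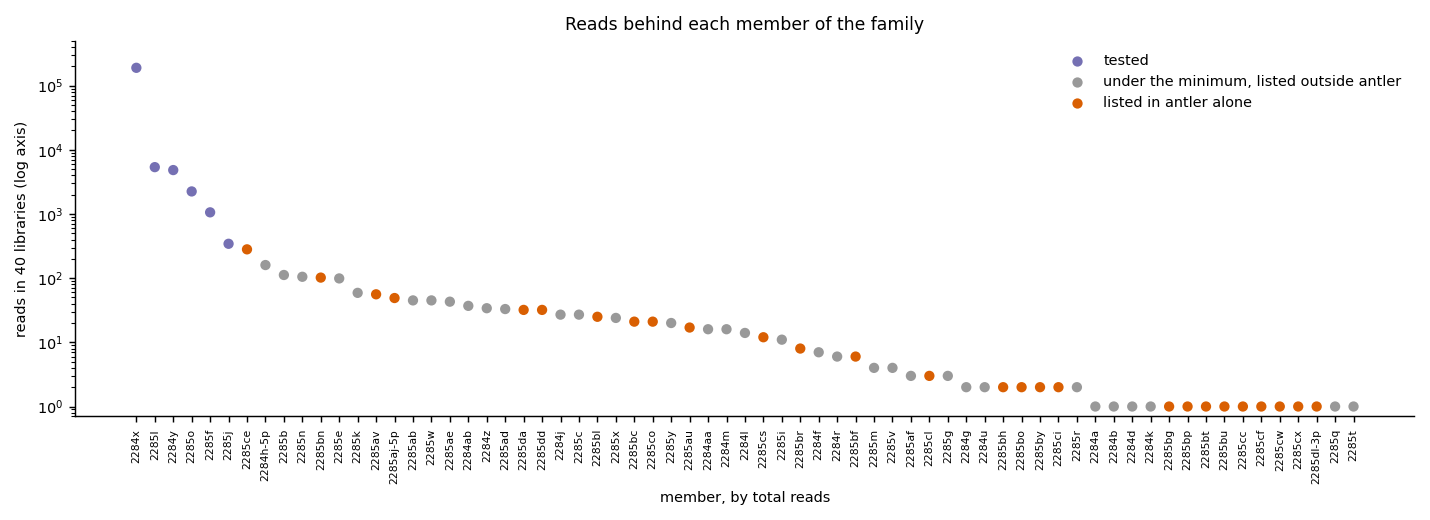
Total reads in 40 libraries (vertical log axis) of each of the 67 members, ordered by reads along the horizontal axis and coloured by whether they were tested, listed outside antler and under the minimum, or listed in antler alone. miR-2284x stands at 189296 reads, and 61 members lie at or under 281 reads.

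The share of all miRNA reads taken by the family differed between organs and followed miR-2284x. It was highest in testes, where it was 2.0% ± 0.622 (SD, n = 4 stages) with a range of 1.27% to 2.79%. Liver had 1.44% ± 0.344, spleen 1.13% ± 0.174 and adrenal 1.10% ± 0.306. Kidney had 0.935% ± 0.0659, brain 0.777% ± 0.428, lung 0.648% ± 0.241 and antler 0.585% ± 0.0830. Heart had 0.218% ± 0.122 and muscle 0.0204% ± 0.00320. With miR-1 left out of the total, the share rose to 0.440% ± 0.222 in heart and to 0.256% ± 0.0619 in muscle, which remained the lowest organs. miR-2284x made 94.2% to 97.5% of the family's reads in the testes libraries. In liver it made 77.2% to 80.5%, since miR-2285l took 14.7% to 17.1% there.

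miR-2285l and miR-2285j were the members with a liver pattern. This pattern was known when the members were chosen, so its values are given as a description. miR-2285j had 46 reads in juvenile, 111 in adolescence, 37 in adult and 139 in aged liver. The levels were 105.0 RPM (exact Poisson 95% interval 76.9 to 140.1), 336 RPM (276.8 to 405), 94.8 RPM (66.8 to 131) and 199 RPM (167 to 235). These intervals, like all others here, cover counting error only. The adolescence and aged livers lay above the juvenile and adult livers, with no overlap of intervals between these pairs of libraries, and the highest was 3.55 times the lowest.

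Outside liver miR-2285j was close to the limit of detection. It had 10 reads in 36 libraries, never more than 1 read in a library, and no read in 26 of them. Its pooled level there was 0.198 RPM (0.0948 to 0.364). The single reads lay in juvenile and adolescence testes, adolescence antler, adolescence kidney, adult adrenal, 3 heart libraries, adolescence spleen and aged muscle. Brain and lung had none. In the 26 libraries at 0 reads a level of up to 0.387 to 71.7 RPM could have been missed, depending on depth. The lowest liver library was 6.37 times the highest other library, adolescence testes at 14.9 RPM, which rests on 1 read. Liver held 97.1% of the reads of miR-2285j and 3.54% of all miRNA reads.

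miR-2285l was read more often and had a second organ. Its levels in liver were 2253, 2495, 3055 and 1485 RPM from juvenile to aged, on 823 to 1192 reads a library, with a mean of 2322 ± 651 RPM. In antler they were 908, 798, 265 and 149.6 RPM, on 108 to 195 reads. Liver was 4.38 times antler by mean RPM, and the lowest liver library was 1.64 times the highest antler library, so in RPM these organs did not overlap. On the TMM scale they did, with 706 in aged liver and 709 in juvenile antler.

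Lung had 118, 83.0, 74.3 and 47.0 RPM of miR-2285l. Spleen had 57.6, 88.7, 70.6 and 79.0 RPM. These organs overlapped each other, and all 8 libraries lay under the lowest antler library. Testes followed with 5.60, 29.7, 20.6 and 71.7 RPM, on 2 or 3 reads a library, and overlapped spleen.

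In kidney miR-2285l had 24.3, 10.9, 27.3 and 2.34 RPM. In adrenal it had 9.58, 2.34, 25.1 and 7.48 RPM. In brain it had 3.45, 8.14, 21.3 and 4.34 RPM. These organs could not be ordered, since their ranges overlapped. Heart had 5.81, 2.73, 22.4 and 2.21 RPM, with the adult library the highest. Muscle had 0.773, 0.550 and 0.830 RPM in juvenile, adolescence and aged libraries and no read in the adult library. In RPM muscle lay under every other organ, but not on the TMM scale, where its values were 12.8, 12.8, 0 and 10.8 against 6.25, 1.53, 9.57 and 5.11 in adrenal.

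**Figure D2:**
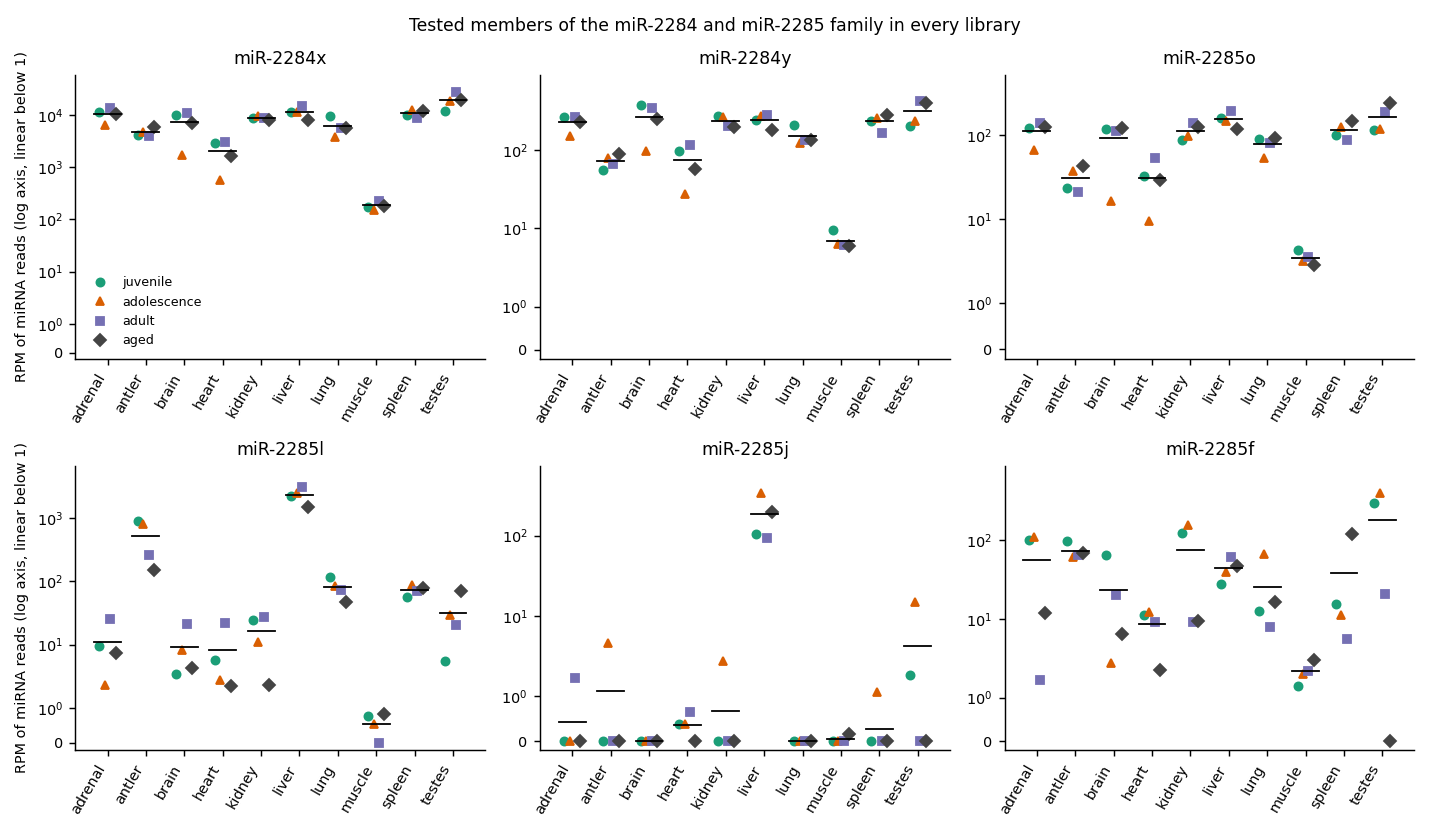
RPM (vertical axis, log scale above 1 RPM and linear below) of the 6 tested members in each of 40 libraries, with organs along the horizontal axis, symbols for the 4 stages and a line at the mean of each organ. miR-2285l and miR-2285j stand highest in liver, and miR-2284x, miR-2284y and miR-2285o follow a similar order of libraries with muscle lowest.

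The ratio of miR-2285l to miR-2285j was not constant within liver. It was 21.5 reads of miR-2285l for 1 of miR-2285j in juvenile, 7.41 in adolescence, 32.2 in adult and 7.47 in aged liver. The library lowest for miR-2285l, aged liver, was the second highest for miR-2285j.

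Differences between organs were tested by limma on log2(RPM + 1) after TMM scaling, over 40 libraries with stage as a covariate. A miRNA was called at an adjusted p (Benjamini-Hochberg) below 0.01 in the F test between organs, and, where 1 organ was set against the mean of the remaining 9, also at an absolute log2 difference above 1. The 4 stages of an organ served as its replicates. Between organs 75% of the 124 miRNAs tested were called, among them miR-2285l, whose liver level was known beforehand. miR-2285j passed the threshold too, but it was tested only because of its liver reads, so nothing is read from that call. miR-2284x (limma adjusted p = 0.0463), miR-2284y (0.0498), and the remaining members miR-2285o and miR-2285f were not called.

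In liver 9.68% of the miRNAs tested were called higher. miR-2285l was higher by 5.76 on the log2 scale (standard error 0.559). The fitted difference of miR-2285j, given only as a description, was 5.91 (standard error 0.366). Its size depends on the 1 RPM added before the log, since other organs were near 0. It ranged from 3.07 with 10 RPM added to 7.51 by edgeR on recovered reads, and without any 1 liver library miR-2285j fell under the minimum and could not be tested. The other members were within 0.30 of the mean of the other organs on this scale, miR-2285o at 0.30 (standard error 0.363), miR-2284x at 0.06 (0.314), miR-2285f at -0.04 (0.811) and miR-2284y at -0.18 (0.335).

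Antler was the second organ with a member called higher. There 14.5% of the miRNAs tested were called higher and 21.8% lower. miR-2285l was higher by 4.17 (standard error 0.559), and miR-2285o was lower, at -1.15 (standard error 0.363, limma adjusted p = 0.00893). The call of miR-2285o was lost in 9 of 15 alternatives, with values from -1.65 to -0.91, among them without juvenile (-0.91) and without adult libraries (-1.06). miR-2285o had 23.3, 37.4, 20.8 and 42.9 RPM in antler, on 5 to 31 reads. miR-2284y lay on the same side in antler, at -0.98 (standard error 0.335), and was not called (limma adjusted p = 0.0140).

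miR-2285l was called lower in adrenal, brain, kidney and muscle. These calls stand against a mean of 9 organs that includes liver and antler, where it was highest. Its liver level was known beforehand and liver was never left out of that mean, so these differences are given as a description. The differences were -2.56 in adrenal (limma adjusted p = 4.80e-04), -2.02 in brain (0.00249), -2.32 in kidney (0.00147) and -2.30 in muscle (8.62e-04). The kidney call was lost with total miRNA reads (-1.47, limma adjusted p = 0.0226) and with miR-1 left out of the total (-1.78, 0.0213), and the muscle call by edgeR on recovered reads (-1.82, adjusted p = 0.0154). Calls were also lost when libraries were left out, in adrenal without adolescence (-2.06, limma adjusted p = 0.0342), in brain without juvenile (-1.66, 0.0453) or adolescence (-2.18, 0.0106) and without antler (-1.65, 0.0204), in kidney without adolescence (-2.17, 0.0255) or aged (-1.85, 0.0230) and in muscle without adult libraries (-1.22, 0.119). The shares of all tested miRNAs called lower were 7.26% in adrenal, 21% in brain, 7.26% in kidney and 15.3% in muscle. In heart miR-2285l was at -1.57 (limma adjusted p = 0.0227) and in testes at -1.83 (0.0111), and neither was called. In lung it was at 1.69 (0.0273) and in spleen at 0.98 (0.243), also not called. No member was called in heart (12.1% of tested miRNAs higher and 18.5% lower), lung (6.45% each way), spleen (4.84% and 0.806%) or testes (5.65% and 14.5%).

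**Figure D3:**
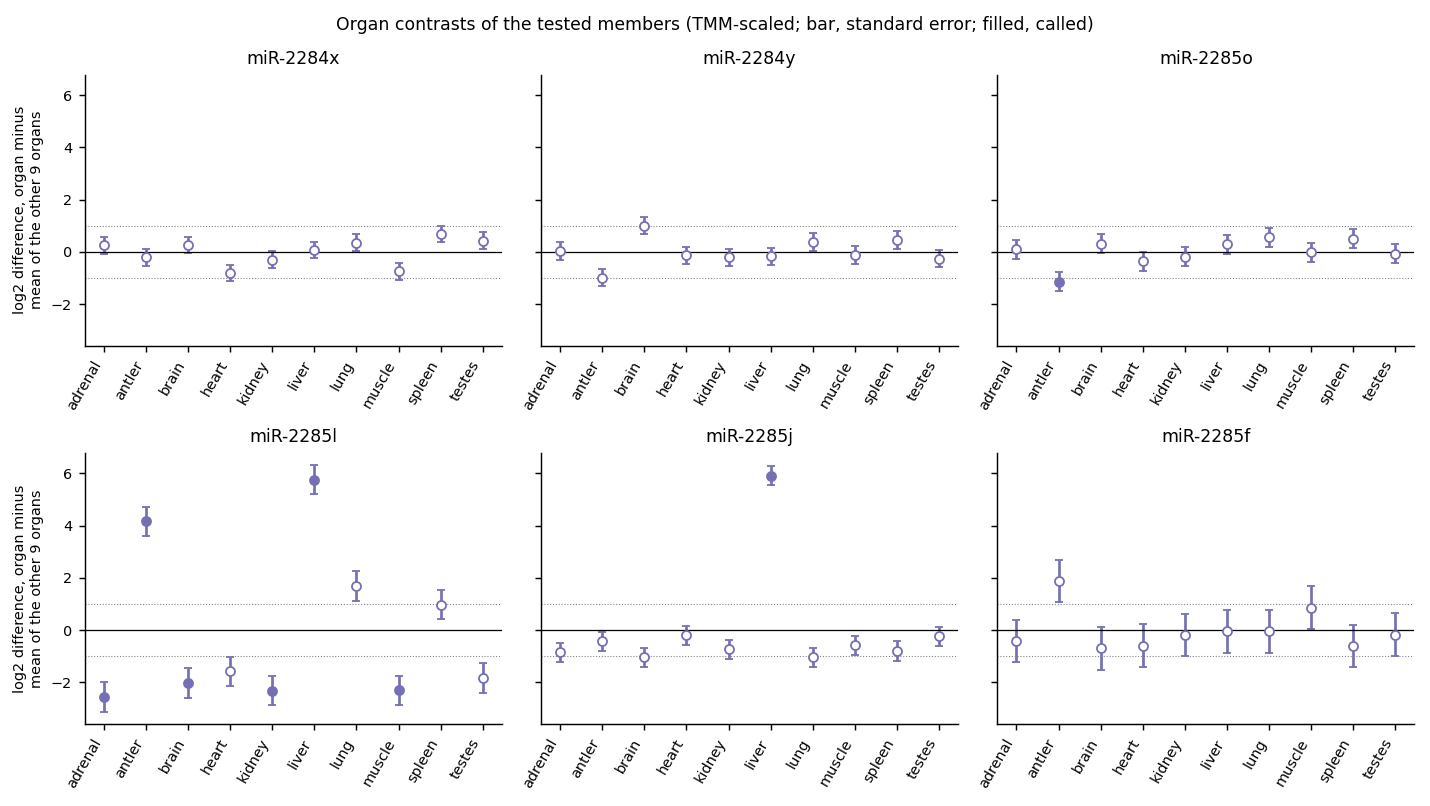
Log2 difference between each organ and the mean of the other 9 (vertical axis, TMM-scaled, bars are standard errors) for the 6 tested members, with organs along the horizontal axis and filled points for calls. miR-2285l reaches 5.76 in liver and 4.17 in antler, miR-2285j 5.91 in liver, and miR-2284x stays between -0.80 and 0.68.

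miR-2284x, miR-2284y and miR-2285o had reads in all 40 libraries, and no other member did. Testes had 11944, 18578, 27211 and 19109 RPM of miR-2284x from juvenile to aged. Liver had 11637, 11258, 14784 and 8026 RPM. Spleen had 10022, 12264, 8887 and 11884 RPM. These organs and the next, adrenal, overlapped each other.

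Adrenal had 11637, 6337, 13451 and 10652 RPM of miR-2284x. Kidney had 8897, 9527, 8883 and 8153 RPM, and had the smallest spread for its mean (8865 ± 561 RPM) of the 10 organs. Brain had 9952, 1734, 10733 and 7001 RPM, with the adolescence library far under the other 3. Its 639 reads came from a library of 368429 miRNA reads, so few reads were not the limit.

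Lung had 9456, 3849, 5625 and 5574 RPM of miR-2284x. Antler had 4247, 4805, 3954 and 5860.2 RPM. Heart had 2929, 572, 3010.2 and 1676 RPM, and all its libraries lay under antler. Muscle had 176, 153, 231 and 183 RPM, lower than heart by 11.01 times in mean RPM. On the TMM scale the order was another, since spleen was highest at 7776 and muscle lowest at 3211, and heart and muscle were 3587 and 3211. With miR-1 left out of the total, miR-2284x had 4102 ± 2134 RPM in heart and 2335 ± 611 RPM in muscle.

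miR-2284y had its highest mean in testes, at 317 ± 113 RPM, with a range of 202 to 423 RPM. Brain, liver, spleen, kidney and adrenal followed with means of 269.7, 245, 237, 236 and 229 RPM and overlapping ranges. Lung had 152 ± 40.03 RPM. Heart (74.3 ± 39.4 RPM) and antler (73.0 ± 14.9 RPM) lay under lung with no overlap in RPM, and muscle had 6.98 ± 1.71 RPM. On the TMM scale brain was highest, at 260.4 against 169 in spleen. Heart and lung overlapped on that scale, since juvenile heart was at 236 and the lung libraries were at 131.5 to 205. In brain miR-2284y was at 1.01 against the other organs (standard error 0.335, limma adjusted p = 0.0114), just above the threshold, and was not called. This depended on the processing. It was called higher in brain by DESeq2 and by edgeR on recovered reads, with total miRNA reads, without adolescence libraries and with near-identical names merged.

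miR-2285o had 114, 119, 186 and 239 RPM in testes, on 8 to 61 reads. Liver had 158, 145, 192 and 119 RPM. Spleen had 98.8, 124, 88.3 and 146 RPM. Levels in these organs overlapped, as they did in the next.

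Kidney had 88.0, 98.1, 139.7 and 124 RPM of miR-2285o. Adrenal had 119.7, 65.4, 139 and 124 RPM. Brain had 118, 16.3, 111 and 120.4 RPM. The low brain library was again that of adolescence, on 6 reads.

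Lung had 88.9, 53.8, 80.8 and 91.2 RPM of miR-2285o. Heart had 32.5, 9.38, 52.6 and 28.7 RPM. Muscle had 4.25, 3.12, 3.54 and 2.82 RPM. In RPM adolescence was the lowest stage in adrenal, brain, heart and lung for each of miR-2284x, miR-2284y and miR-2285o. In heart this depended on the scaling, since miR-1 took 81.5% of the reads of the adolescence library and on the TMM scale the aged library was lowest for all 3 (miR-2284x at 1659 against 2084 in adolescence). In lung miR-2284y was also lowest in the aged library on that scale, at 131.5 against 145 in adolescence.

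These 3 members kept a similar order of libraries while differing in level. Across 40 libraries, Pearson's r of log2(RPM + 1) was 0.968 between miR-2284x and miR-2284y, 0.965 between miR-2284x and miR-2285o and 0.970 between miR-2284y and miR-2285o. Without muscle, which lies far from the rest, the values were 0.897, 0.913 and 0.928 over 36 libraries. The points share libraries and totals, so these values are a description. A median of 41.7 reads of miR-2284x were counted for 1 of miR-2284y, with a range of 17.8 in adolescence brain to 78.1 in adolescence testes. The ratio was lower in brain (17.8 to 31.1), heart (20.6 to 30.4) and muscle (18.5 to 37.5) than in antler (59.3 to 76.0) and testes (47.1 to 78.1). Against miR-2285o the median ratio was 85.1. Reads of miR-2284x for 1 of miR-2285l ran from 4.51 in adolescence liver to 3492 in aged kidney.

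**Figure D4:**
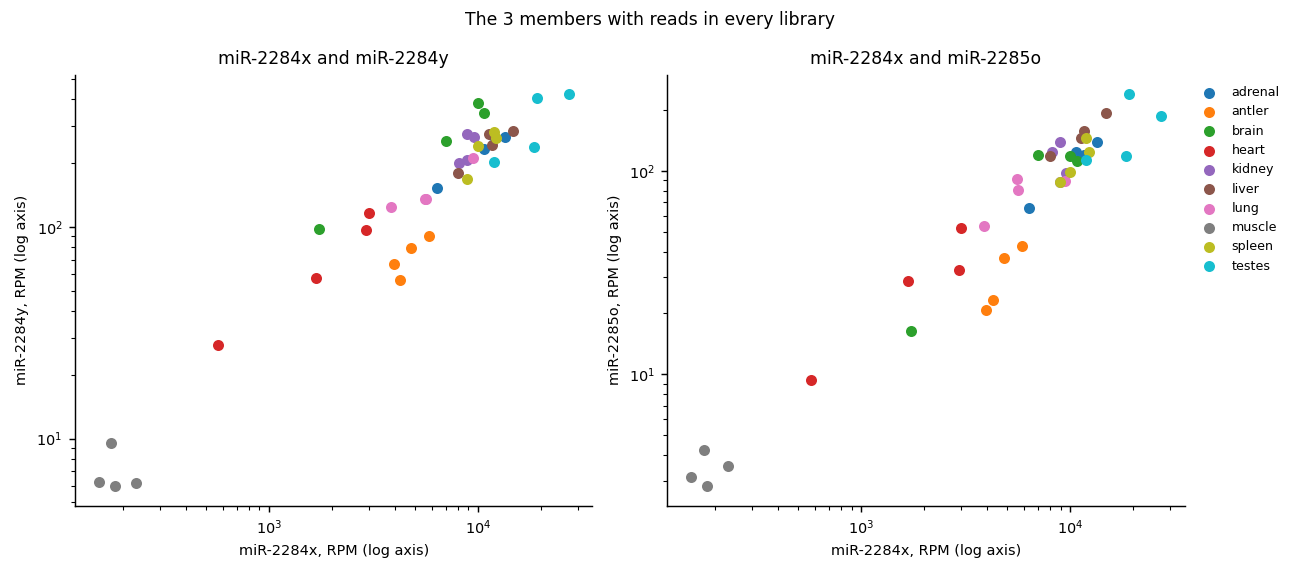
RPM of miR-2284y (left) and miR-2285o (right) against miR-2284x, all on log axes, with 1 point for each of 40 libraries coloured by organ. Muscle lies lowest on all axes, brain lies above organs with a similar miR-2284x level for miR-2284y, and antler lies low for both.

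miR-2285f was the member with a stage pattern. Its fall in older heart, kidney and adrenal was known when the members were chosen, so its values are given as a description. In adrenal it had 102, 109, 1.67 and 11.8 RPM from juvenile to aged, on 64, 93, 1 and 11 reads. In kidney it had 124, 158, 9.11 and 9.34 RPM, on 41, 58, 3 and 8 reads. In heart it had 11.2, 12.1, 9.21 and 2.21 RPM, on 29, 31, 14 and 2 reads. In each of these organs both older libraries lay under both younger ones. The mean of the younger libraries was 15.7 times that of the older ones in adrenal, 15.3 times in kidney and 2.04 times in heart, where the exact 95% intervals of the adult library (5.03 to 15.4 RPM) and of the younger libraries overlapped.

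In the stage tests organs of the same pooled deer served as replicates, so standard errors and p values do not measure the spread between deer. The log2 difference of miR-2285f by limma, given only as a description, was -3.16 (standard error 0.478) in older heart, kidney and adrenal. There 34.9% of 106 miRNAs tested were called and 11.3% were called lower. The other 3 members tested there were not called. Their differences were 0.22 for miR-2284x, 0.02 for miR-2284y and 0.57 for miR-2285o (limma adjusted p = 0.595, 0.981 and 0.209). Over all miRNAs tested in these organs, 7.55% had both older libraries under both younger ones in all 3, and 21.7% the reverse. miR-2285j and miR-2285l did not reach the minimum there.

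In testes miR-2285f had 295, 402, 20.6 and 0 RPM, on 158, 27, 2 and 0 reads. The older testes libraries were shallow, and the aged library allowed up to 71.7 RPM at 0 reads, which was still under both younger libraries. Liver had 27.4, 39.4, 61.5 and 47.2 RPM, with overlapping counting intervals. Muscle had 1.42, 2.02, 2.15 and 2.99 RPM, with overlapping counting intervals.

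Spleen had 15.3, 11.2, 5.52 and 119.7 RPM of miR-2285f, and the aged library, with 50 reads, was apart from the others. Lung had 12.4, 66.1, 7.82 and 16.3 RPM, with adolescence the highest. Brain had 64.7, 2.71, 20.03 and 6.51 RPM, with juvenile the highest. Antler had 97.8, 60.7, 65.2 and 67.9 RPM, with overlapping counting intervals. Both older libraries thus lay under both younger ones in 4 organs, adrenal, kidney, heart and testes, in RPM and on the TMM scale. Liver and muscle had both older libraries higher in RPM, but not on the TMM scale, where the values were 14.8, 23.3, 19.4 and 22.5 in liver and 23.5, 46.8, 37.3 and 38.9 in muscle.

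In the other 7 organs 0% of 112 miRNAs were called for adult and aged against juvenile and adolescence (21 had an unadjusted p below 0.05), and miR-2285f was at -0.73 (standard error 0.551, limma adjusted p = 0.508). The difference between both sets of organs was -2.71 for miR-2285f (standard error 0.938, limma adjusted p = 0.1001). By limma 0% of 124 miRNAs were called for this difference. DESeq2 on recovered reads called it (-3.18), as did limma without the testes libraries (-3.16, adjusted p = 0.00441). A fall particular to heart, kidney and adrenal was therefore not shown.

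**Figure D5:**
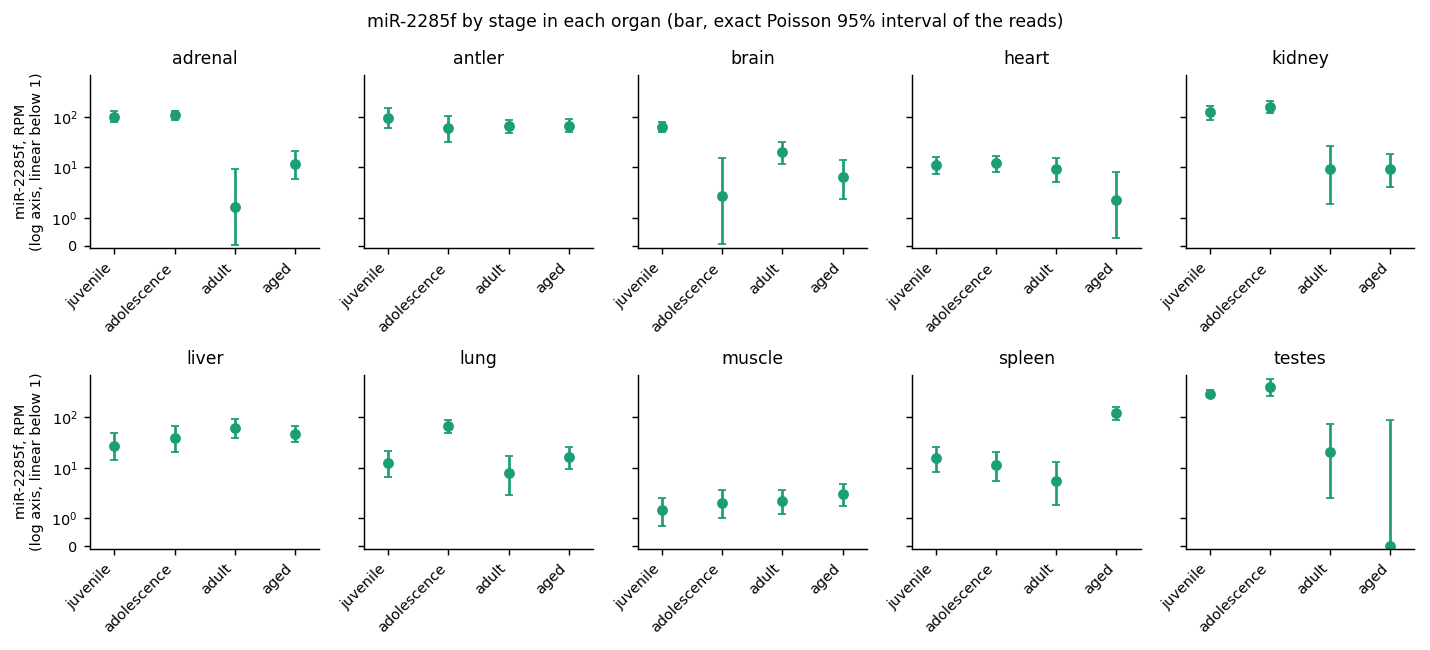
RPM of miR-2285f (vertical axis, log scale above 1 RPM and linear below) at each of 4 stages, in 1 panel per organ, with exact Poisson 95% intervals of the reads as bars. In adrenal, kidney and testes the juvenile and adolescence points lie between 102 and 402 RPM and the older ones at or below 20.6 RPM.

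The miRNAs outside the family whose levels were most like those of miR-2285f over 40 libraries were miR-142-5p (Pearson's r of log2(RPM + 1) 0.843), miR-98 (0.799) and miR-374a (0.796). miR-142-5p is a miRNA of blood cells and was used here as a spleen marker. Its levels were 43.1, 36.2, 3.34 and 5.35 RPM in adrenal, 91.1, 141.7, 15.2 and 15.2 RPM in kidney, and 57.6, 104, 6.62 and 2849 RPM in spleen from juvenile to aged. It therefore fell with miR-2285f in adrenal and kidney and was high in the aged spleen library as miR-2285f was. The same held for miR-374a, which was not among the markers, with 1184, 1350, 102 and 199 RPM in adrenal from juvenile to aged. In kidney miR-374a had 534, 1278, 88.0 and 140 RPM, and in aged spleen 706 RPM. miR-150, the other spleen marker analysed, went the opposite way in kidney and spleen. It had 6.07, 68.1, 115 and 129.6 RPM in kidney and 31.1 RPM in aged spleen against 256 to 325 RPM in the other spleens. In testes miR-150 had 9.33, 59.5, 20.6 and 23.9 RPM.

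In heart, kidney and adrenal the limma difference of adult and aged libraries was -2.30 for miR-142-5p, 2.42 for miR-150 and -2.17 for miR-374a, all called, and -0.88 for miR-98, not called. The summed level of both spleen markers was 42.1 to 47.9 RPM in younger and 11.7 to 16.0 RPM in older adrenal. In heart it was 12.01 to 15.2 RPM in younger and 19.7 to 23.2 RPM in older libraries, and in kidney 97.1 to 209.8 RPM and 131 to 145 RPM. The part of blood cells in the level of miR-2285f was not tested.

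Across all organs no member was called with stage. In the F test between stages 4.84% of 124 miRNAs were called, and the members' adjusted p by limma ran from 0.0969 for miR-2285f and 0.107 for miR-2285j to 0.603 for miR-2285l. Aged against juvenile, 4.84% were again called and no member. The differences were -0.30 for miR-2284x (standard error 0.266), -0.34 for miR-2284y (0.284), 0.03 for miR-2285o (0.308), -0.59 for miR-2285l (0.474), 0.05 for miR-2285j (0.310) and -1.52 for miR-2285f (0.689). The unadjusted p was under 0.05 for 2 members in the F test and for miR-2285f in the contrast.

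Some members still differed between stages within an organ. miR-2285l was lower in both older libraries than in both younger ones in antler and lung. In antler the mean of 908 and 798 RPM stood against 265 and 149.6 RPM, on more than 100 reads each. With 1 library a stage these differences have no replicate check.

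Other miRNAs whose levels were most like those of a member were found in the same way, among 117 tested miRNAs outside the family. For miR-2284x they were miR-151-5p (r = 0.934), miR-185 (0.920) and let-7c (0.914). For miR-2284y they were miR-151-5p (0.927), let-7c (0.904) and miR-664b (0.882), and for miR-2285o miR-151-5p (0.941), miR-339b (0.911) and miR-339a (0.909). On the TMM scale, which raises the muscle libraries, r with miR-151-5p was 0.568, 0.540 and 0.658. For miR-2285l they were miR-214 (0.742), miR-2478 (0.716) and miR-574 (0.707), and for miR-2285j miR-216b (0.651), miR-192 (0.598) and miR-2898 (0.501). miR-192 is abundant in liver and kidney. Values for miR-2285j rest on 14 libraries with a read.

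Of the 34 members under the minimum and listed outside antler, 5 had 50 reads or more, 14 had 10 to 49 and 15 had fewer. The largest were miR-2284h-5p with 160 reads in 33 libraries, miR-2285b with 112 in 29, miR-2285n with 105 in 25, miR-2285e with 99 in 29 and miR-2285k with 59 in 24. All of these 5 had a read in each of the 10 organs. No organ held them alone. miR-2285b, miR-2285e and miR-2285n were highest in aged spleen, at 33.5, 31.1 and 21.6 RPM on 14, 13 and 9 reads, and miR-2284h-5p in juvenile testes at 35.5 RPM on 19 reads.

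The members with 10 to 49 reads were miR-2285ab and miR-2285w with 45 each, miR-2285ae (43), miR-2284ab (37), miR-2284z (34), miR-2285ad (33), miR-2284j and miR-2285c (27 each), miR-2285x (24), miR-2285y (20), miR-2284aa and miR-2284m (16 each), miR-2284l (14) and miR-2285i (11). miR-2285ae differed from the others by its place, since 33 of its 43 reads came from adolescence adrenal (38.6 RPM). miR-2285i had 6 of its 11 reads in liver. Under 10 reads were miR-2284f (7), miR-2284r (6), miR-2285m and miR-2285v (4 each), miR-2285af and miR-2285g (3 each) and miR-2284g, miR-2284u and miR-2285r (2 each). miR-2284r had 5 of its 6 reads in liver, where it was seen in 3 libraries. With 1 read each were miR-2284a, miR-2284b, miR-2284d, miR-2284k, miR-2285q and miR-2285t. miR-2285ae, miR-2285i and miR-2284r were singled out after their values were seen.

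Some of these names shared their reads. miR-2284j had the same reads as miR-2312, a name outside the family, in all 40 libraries (27 reads in all), and miR-2285af the same as miR-2285g. For such names the tables do not tell which sequence was read.

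The summed reads of these 34 members were highest in aged spleen, at 182 RPM on 76 reads, followed by adolescence testes at 178 RPM on 12 reads and juvenile testes at 119 RPM on 64 reads. They were lowest in adolescence brain, with no read, and in muscle, at 4.81 ± 0.656 RPM. By organ the highest mean was that of testes, at 96.7 ± 65.0 RPM on 82 reads. Spleen had 67.3 ± 77.2 RPM, and its spread came from the aged library.

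Antler listed names that no other organ had. The 27 members found there alone held 682 reads. By contrast 36 libraries of other organs, with 50618919 miRNA reads, listed none of them. Only if these names were searched for there does this allow a pooled level of up to 0.0593 RPM for each. If they were not, it sets no limit. The largest was miR-2285ce, with 52, 28, 80 and 121 reads from juvenile to aged antler, then miR-2285bn with 14, 13, 32 and 43 reads, miR-2285av with 3, 9, 13 and 31 and miR-2285aj-5p with 9, 3, 17 and 20. Of the rest, miR-2285da and miR-2285dd had 32 reads each, miR-2285bl 25, miR-2285bc and miR-2285co 21 each, miR-2285au 17 and miR-2285cs 12. In 10 of the 27 all antler libraries had a read.

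Under 10 reads in antler were miR-2285br (8), miR-2285bf (6), miR-2285cl (3) and miR-2285bh, miR-2285bo, miR-2285by and miR-2285ci (2 each). With 1 read each were miR-2285bg, miR-2285bp, miR-2285bt, miR-2285bu, miR-2285cc, miR-2285cf, miR-2285cw, miR-2285cx and miR-2285dl-3p. Summed, these 27 members made 470.4, 364, 309.8 and 407 RPM from juvenile to aged antler, 5.89% to 8.05% of the family's reads there.

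These antler names stood beside other differences in naming. Of 32 known names listed in antler alone 27 were of this family. miR-148c was listed in all 4 antler libraries and in none of the other 36, while miR-2957 was listed in 35 of those 36 and in no antler library. Presence in antler tissue and a different list of names for the antler libraries cannot be told apart, so these members entered no test between organs.

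The number of members listed in a library was 5 in adolescence brain to 35 in aged antler, with a median of 15. Thinning each library to 41866 miRNA reads, which can only lower this number, left an expected median of 5.77 members. The ends were 1.64 in adult muscle and 13.6 in adolescence antler. The listed number did not follow depth alone, since juvenile testes listed 26 on 535668 miRNA reads and juvenile muscle 16 on 7759033. Without the names of antler alone, the highest thinned number was 11.8, in adolescence testes.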

How the data were processed

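Small RNA of 40 libraries was read on an Illumina system. The labels name a NEBNext kit for the small RNA libraries and the methods of the study a TruSeq kit, and which was used is not settled here. The labels name CASAVA, bcl2fastq 1.8.4 and Bowtie among the tools. The authors trimmed the reads, took out other kinds of small RNA, assigned known miRNAs by miRBase and predicted more with miRDeep. They deposited RPM per miRNA, scaled to the miRNA reads of each library. The header of the deposited columns says tpm, yet the values are not divided by length. Unlisted names were taken as 0 reads.

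All 7982 listed values were within 0.1 of a whole number of reads, the largest distance being 4.1e-05, so reads were recovered from the RPM. Models used 306 known names in 40 libraries. Names of antler alone were left out, apart from miR-148c, which was added to miR-2957, and miR-205. RPM were rescaled by TMM (edgeR 4.0.16), and log2(RPM + 1) was fitted by limma 3.58.1 with a trend (R 4.3.3). To be tested, a miRNA needed 10 reads in 4 libraries compared. A call needed an adjusted p below 0.01 and, outside F tests, a log2 difference above 1 in size. Organ models had stage as a covariate and stage models organ. The scripts were tested on simulated data. The edgeR quasi-likelihood and DESeq2 1.42.0 tests on recovered reads were alternatives. Intervals are exact Poisson intervals, and 3 reads were used as the limit of a count of 0. The labels name no sequencing batch. No sequence of the members was analysed here.

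The members, markers and lists were chosen with earlier results of these data known. Values in every library are given for miR-2284x, miR-2285j, miR-2285l, miR-2285f and any member called, organ means for other tested members, and reads for the rest.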

Additional observations from a re-analysis of the deposited data

How the results depend on the processing

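The counts of members called moved with the scaling. Between organs 2 members passed the threshold in the tests reported. They were miR-2285l, whose liver level was known beforehand, and miR-2285j, whose call its selection fixed. The number was 5 with RPM scaled to total miRNA reads, 5 with miR-1 left out of the total and 4 by DESeq2. The added calls were miR-2284x and miR-2284y, and with the first 2 scalings also miR-2285o. In liver 5 members were called with total miRNA reads, in place of 2. In the other organs the calls rose from 6 to 18 with total miRNA reads and to 10 without miR-1, while the kidney call of miR-2285l was lost with both, and its muscle call by edgeR. With total miRNA reads the median log2 difference of all tested miRNAs was -3.62 in muscle and 1.07 in liver, against -0.31 and -0.08 by TMM, so the added calls of miR-2284x, miR-2284y and miR-2285o in these organs lay in the direction of that shift. The split of all calls into higher and lower also moved, in liver from 12 and 15 to 44 and 5, in antler from 18 and 27 to 13 and 39 (without miR-1), in muscle from 23 and 19 to 7 and 102, in adrenal from 13 and 9 to 32 and 6, in kidney from 12 and 9 to 42 and 2, and in older heart, kidney and adrenal from 25 and 12 to 21 and 18 (without miR-1). The highest organ stayed the same for 6 of 6 tested members without miR-1, and for 2 (miR-2285j and miR-2285l) on the TMM scale. For the difference of maturity between both sets of organs 1 member, miR-2285f, was called by DESeq2 and 0 by limma.

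Leaving out 1 stage gave 1 to 2 members between organs. They were miR-2285l in each case, whose liver level was known beforehand, and miR-2284x without juvenile libraries. The other organs had 4 to 6 calls, and 5 to 6 members kept the same highest organ. Leaving out a stage or a liver library gave 1 member in liver (1 to 1), because miR-2285j then fell under the minimum. miR-2285f passed the threshold in older heart, kidney and adrenal in 26 of 26 alternatives, those without 1 library included (log2 -3.87 to -2.07). Its fall was known beforehand and these runs reuse the same libraries, so they give no separate support. The maturity difference had 0 to 1 member called without 1 organ, the 1 being miR-2285f without testes. Stage tests over all organs and in the other 7 organs called 0 members in every alternative run. Thinning, which can only lower it, moved the median number of members listed from 15 to 5.77. TMM from tested miRNAs alone, TMM without miR-205 and leaving out antler or 1 library of heart, kidney and adrenal were added after the data were seen. With 1 library per organ and stage, no spread between replicates was measured, and 59 of 67 members had too few reads for a test.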
